A study of Homo sapiens with 60 samples.

Results

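Fresh ginger, given to human astrocytoma cells as a water extract of Zingiberis Rhizoma Recens, was compared at its high dose of 500 µg/mL with its low dose of 20 µg/mL. The comparison is between 6 of the 60 libraries of the series, 3 at each dose, which were chosen by their labels alone. Both doses share the first number of their description codes, and no vehicle library is on either side of the comparison. A further 3 libraries of the same extract at 100 µg/mL gave the steps of the dose series. The 6 libraries of the dried ginger water extract at 500 and 20 µg/mL, which have the same first code number, gave the difference between the gingers. The 3 vehicle libraries carry another code, and their levels are given beside the doses. Like all 60 libraries they were in the fit, which set the filter, the scaling and the estimate of spread.

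All of these groups were SW1783 cells, a single established human astrocytoma line, collected 24 h after treatment. The cells grew in Leibovitz L-15 medium with heat-inactivated fetal bovine serum and no added CO2. The labels describe each extract as a hot water extract of dried plant material that was then freeze-dried, and they use the same words for the fresh rhizome. The vehicle is given as 0.1% DMSO in the sample labels and as 2% in the series design. Nothing in the labels says that the 3 libraries of a group came from separate cultures. The p-values thus measure the spread between libraries of a group, which may be technical and was estimated over all 20 groups together.

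Cells that lack an amino acid, or whose endoplasmic reticulum fills with unfolded protein, phosphorylate the translation factor eIF2alpha. Most translation then slows while the transcription factor ATF4 is made, and ATF4 turns on genes that make, import and activate amino acids. This programme is called the integrated stress response, and it overlaps with the unfolded protein response, which raises the chaperones of the endoplasmic reticulum. Electrophiles and oxidants act through another factor, NRF2, which drives genes of glutathione, iron storage and quinone reduction. Glioma cells are known for importing cystine through SLC7A11, a transporter that both ATF4 and NRF2 control.

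The promoters of 6 genes from the lists described below are shown here, picked because each holds the motif of the factor that is best known for its pathway. The 250 bases before the start of each gene are written 5′ to 3′ on the strand of the gene, from RefSeq on build GRCh38.p14, with the motif in capitals. ASNS lies at chr7:97872409-97872658 on the minus strand, CHAC1 at chr15:40953221-40953470 on the plus strand and AARS1 at chr16:70289507-70289756 on the minus strand. HSPA5 lies at chr9:125241344-125241593, XBP1 at chr22:28800570-28800819 and ACTG1 at chr17:81512800-81513049, all on the minus strand. The capitals mark the CCAAT and ATF composite site TGATGNAA or its reverse complement in ASNS, CHAC1 and AARS1, and the endoplasmic reticulum stress element, CCAAT and CCACG with 9 bases of any kind between them, in HSPA5 and XBP1. In ACTG1 they mark the CArG box, the site of serum response factor (SRF).
ASNS: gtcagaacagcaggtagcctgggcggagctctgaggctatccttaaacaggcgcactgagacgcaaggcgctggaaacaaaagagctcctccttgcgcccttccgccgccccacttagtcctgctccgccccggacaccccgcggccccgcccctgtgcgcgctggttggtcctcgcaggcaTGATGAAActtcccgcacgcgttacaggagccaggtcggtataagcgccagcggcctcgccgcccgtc
CHAC1: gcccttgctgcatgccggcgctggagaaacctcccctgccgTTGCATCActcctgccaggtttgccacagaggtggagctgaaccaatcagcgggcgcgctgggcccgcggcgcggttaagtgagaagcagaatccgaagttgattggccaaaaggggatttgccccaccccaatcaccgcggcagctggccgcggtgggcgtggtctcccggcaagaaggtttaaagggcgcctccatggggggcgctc
AARS1: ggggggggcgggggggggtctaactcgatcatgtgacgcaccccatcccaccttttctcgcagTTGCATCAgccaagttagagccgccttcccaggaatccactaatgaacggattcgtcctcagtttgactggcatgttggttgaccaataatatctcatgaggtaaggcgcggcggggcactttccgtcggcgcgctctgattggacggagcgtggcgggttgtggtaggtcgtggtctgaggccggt
HSPA5: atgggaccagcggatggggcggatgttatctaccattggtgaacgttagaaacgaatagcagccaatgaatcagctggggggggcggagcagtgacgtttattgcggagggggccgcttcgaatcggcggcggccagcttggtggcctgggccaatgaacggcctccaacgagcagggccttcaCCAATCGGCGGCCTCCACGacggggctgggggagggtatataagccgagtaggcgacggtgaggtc
XBP1: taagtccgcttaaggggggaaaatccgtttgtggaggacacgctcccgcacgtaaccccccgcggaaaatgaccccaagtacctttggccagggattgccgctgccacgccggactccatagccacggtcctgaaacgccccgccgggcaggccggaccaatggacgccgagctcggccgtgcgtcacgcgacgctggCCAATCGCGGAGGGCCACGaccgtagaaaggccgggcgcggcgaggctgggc
ACTG1: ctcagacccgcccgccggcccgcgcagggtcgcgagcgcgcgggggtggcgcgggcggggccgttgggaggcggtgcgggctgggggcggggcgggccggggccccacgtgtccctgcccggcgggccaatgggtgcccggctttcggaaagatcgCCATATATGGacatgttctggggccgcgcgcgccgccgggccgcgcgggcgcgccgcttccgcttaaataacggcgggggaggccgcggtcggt
Here and below a gene rose or fell where its adjusted p passed the threshold given with the counts of genes. Motifs were counted on both strands in windows of 300 bases, 250 before and 50 after the start, in the 11947 tested genes whose symbol matched a RefSeq promoter. TGATGNAA stood in 14 of the 46 matched promoters (30.4%) of changed members of the amino acid and stress lists described below, and in 209 of the 11947 (1.7%). The endoplasmic reticulum stress element stood in 7 of 21 promoters (33.3%) of folding genes that rose, among them CALR, CANX, CRELD2 and HSP90B1 beside HSPA5 and XBP1, and in 14 of the 11947 (0.12%). The CArG box stood in 6 of 16 promoters (37.5%) of actin genes that fell, among them FLNA, CNN2, TPM4 and SRF itself, against 1.1% of the 11947. The core of the antioxidant response element, TGACNNNGC, was in 5 of 15 promoters of NRF2 targets that rose (33.3%), GCLM, ME1, PGD, PIR and TXNRD1, and in 15.1% of the 11947. GCGTG, the core bound by the aryl hydrocarbon receptor, was in 4 of 4 matched promoters of pathway genes that rose and in 49.8% of all. The lists hold genes already assigned to these pathways, so an excess of the motif over all promoters can come with the lists. Members that did not change were not counted, and whether the factors acted was not tested. GDF15, ADM2, TRIB3, SLC7A11, CBS, HERPUD1 and ACTA2, described below, were not among the genes with a match, for want of the motif or of a matched promoter. A match is a description of the letters and not a measured binding site.

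Levels are given in CPM, counts scaled to a common library total. Library totals were 22.6 to 29.6 M counts in the 9 fresh ginger libraries and 20.2 to 32.8 M in all 60. A gene with 0 counts in a fresh ginger library could have up to 3, which is 0.101 to 0.132 CPM, and this limit covers counting error only. Low-dose library 1 stood apart from the others. Its counts leaned to short genes, with a slope of log2 deviation on log10 exon length of -0.179, against -0.048 to 0.029 in the high-dose libraries and -0.066 and -0.085 in the other low-dose libraries. It also had the largest share of mitochondrial genes, 6.35% of counts against 5.67% to 5.71% at the high dose and 5.31% and 5.96% in low-dose libraries 3 and 2. Low-dose library 1 differed from low-dose libraries 2 and 3 by a chi-square of 4.16 and 4.45 per gene. Low-dose libraries 2 and 3 differed by 3.69, also above the high-dose pairs (2.27 to 2.44) and the medium-dose pairs (1.96 to 2.72). The low-dose group was thus more uneven also without library 1. The estimate of spread behind the p-values was shared by all 20 groups, so it does not follow the low-dose group alone. Results that lean on this library are given with and without it.

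At 500 µg/mL, 4090 of 17569 tested genes differed from 20 µg/mL at an adjusted p under 0.05 (23.3%), 2004 higher (11.4%) and 2086 lower (11.9%). All adjusted p are from edgeR's quasi-likelihood F test with Benjamini-Hochberg adjustment over the tested genes, and a gene is said to rise or fall only where it passed. Most changes were small: 2803 of the 4090 (68.5%) were under 1.2-fold, and 59 genes rose and 56 fell by more than 2-fold. Without low-dose library 1 the count was 2998, and 2869 of the 4090 were called in the same direction. With only the 2 compared groups fitted the count was 3570, and 3409 of the 4090 were called in the same direction. Under every setting tried, leaving out each library in turn included, 1944 genes kept their call, 925 higher and 1019 lower. The doses did not overlap in 3803 of the 4090, and in 6187 of all tested genes (35.2%). Counts of list members below stand beside the shares of all tested genes, 11.4% higher and 11.9% lower.

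**Figure D1:**
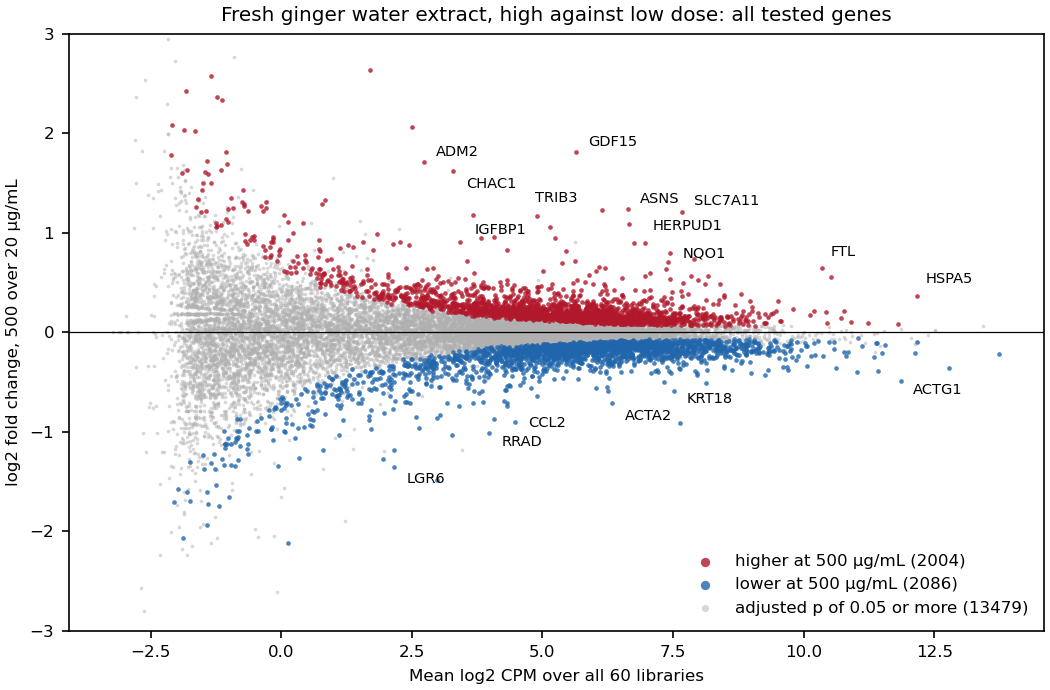
Each point is a tested gene, placed by its mean log2 CPM over all 60 libraries and its log2 fold change at 500 over 20 µg/mL fresh ginger. Red marks the 2004 genes that were higher, blue the 2086 that were lower and grey the rest, and 36 tested genes lie beyond the axis limit of 3 and are not drawn. The labelled genes were chosen by hand, and among them HSPA5 and FTL rose at high levels of expression.

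The label of the cells was checked against markers. VIM, the intermediate filament of astroglia and mesenchymal cells, was at 3827, 3694 and 3882 CPM at 500 µg/mL, against 4360.2, 4498 and 4282 CPM at 20 µg/mL. CD44, a receptor of hyaluronan, stood between 2734 and 2849 CPM in all 6 libraries. Several astrocyte markers were near or at 0. GFAP had 0 to 5 counts at the high dose and 2 to 7 at the low dose, and S100B had 2 to 3 and 3 to 5. AQP4 and SOX2 had 0 counts in every fresh ginger library. SLC1A3, an astroglial marker of the same list, was expressed, at 29, 26.3 and 26.7 CPM at the high dose and 31.4, 31.1 and 28.7 CPM at the low dose. Of the 7 tested astroglial and mesenchymal markers 1 rose and 3 fell, and their summed level was 8023 to 8351 CPM at the high dose and 8479 to 8772 CPM at the low dose. CHI3L1, a secreted glycoprotein of mesenchymal glioma, rose (log2 fold change 0.20 ± 0.04, SE). VIM (-0.20 ± 0.03), SOX9 (-0.17 ± 0.04), a factor of glial fate, and SLC1A3 (-0.16 ± 0.05) fell. Of 15 markers of other cell types 7 could be tested, and AIF1, CD3E and MOG, of microglia, T cells and oligodendrocytes, had 0 counts.

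The rule for the largest rises and falls took only genes whose doses do not overlap. By this rule the largest rises were CDRT4, GDF15, ADM2, CHAC1, ASNS, TRIB3, SLC7A11 and CBS, and 7 of these 8 belong to the amino acid and stress lists. GDF15, a stress cytokine that signals to the hindbrain (ENSG00000130513, plus strand of chromosome 19 from 18374731 to 18389176, GRCh38), stood at 14.8, 14.2 and 14.3 CPM at 500 µg/mL, against 4.1, 4.29 and 3.88 CPM at 20 µg/mL. The groups were far apart, a 3.51-fold difference (log2 fold change 1.81 ± 0.09, adjusted p = 7.8e-23). The 3 vehicle libraries stood at 3.36, 4.18 and 4.09 CPM, the first below the low-dose libraries and the others among them. CDRT4 gave the largest estimate (2.64 ± 0.88, adjusted p = 0.023) from uneven libraries, 3.54, 10.2 and 4.6 CPM against 0.509, 2.06 and 0.277 CPM. Without low-dose library 1, low-dose library 3 or high-dose library 2 its adjusted p was 0.093 to 0.16. CDRT4 also overlaps a read-through transcript, so its counts are uncertain.

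The largest falls were FMC1-LUC7L2, LGR6, HMGN2P5, TNFSF15, RRAD, BCYRN1, CCL2 and ELN. LGR6, a receptor of R-spondins that strengthens WNT signals (ENSG00000133067, plus strand of chromosome 1 from 202193901 to 202319781), stood at 2.59, 2.08 and 1.71 CPM at the high dose and 5.94, 5.65 and 4.67 CPM at the low dose, a fall of 60.8% (-1.35 ± 0.16). TNFSF15, a cytokine of the tumour necrosis factor family, stood at 6.45, 5.15 and 5.29 CPM and 13.1, 11.4 and 10.1 CPM (-1.04 ± 0.10). RRAD, a small GTPase that restrains calcium channels and glucose uptake, stood at 7.92, 9.32 and 9.08 CPM and 19.2, 16 and 17.9 CPM (-1.01 ± 0.09). In all 3 genes the groups did not overlap, as the rule for the largest falls asks, and the medium-dose mean lay between them. ELN, the elastin of elastic fibres, was low throughout, at 2.23, 2.64 and 1.51 CPM against 3.39, 3.87 and 4.51 CPM (-0.88 ± 0.19).

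The other large falls came from transcripts whose high-dose level was close to the vehicle. HMGN2P5, a processed pseudogene that can share reads with its parent gene, stood at 2.75, 2.98 and 2.85 CPM at the high dose, 8.31, 6.07 and 6.34 CPM at the low dose and 2.93 CPM on average in the vehicle. BCYRN1, a small RNA derived from a repeat, stood at 4.66, 6.89 and 5.62 CPM, 13.8, 8.51 and 11 CPM, and 4.6 CPM in the vehicle. FMC1-LUC7L2, a read-through gene that overlaps its neighbours, stood at 5.61, 4.51 and 6.07 CPM, 17.2, 11.1 and 17.3 CPM, and 6.98 CPM in the vehicle. In each of these the low dose was the group that stood apart, and low-dose library 1 was the highest in HMGN2P5 and BCYRN1. Without that library the log2 fold change of HMGN2P5 was -1.12 (adjusted p = 2.1e-05) against -1.28 with it, and that of BCYRN1 was -0.77 (adjusted p = 0.01) against -0.96. For FMC1-LUC7L2 it was -1.38 (adjusted p = 0.005) against -1.49.

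**Figure D2:**
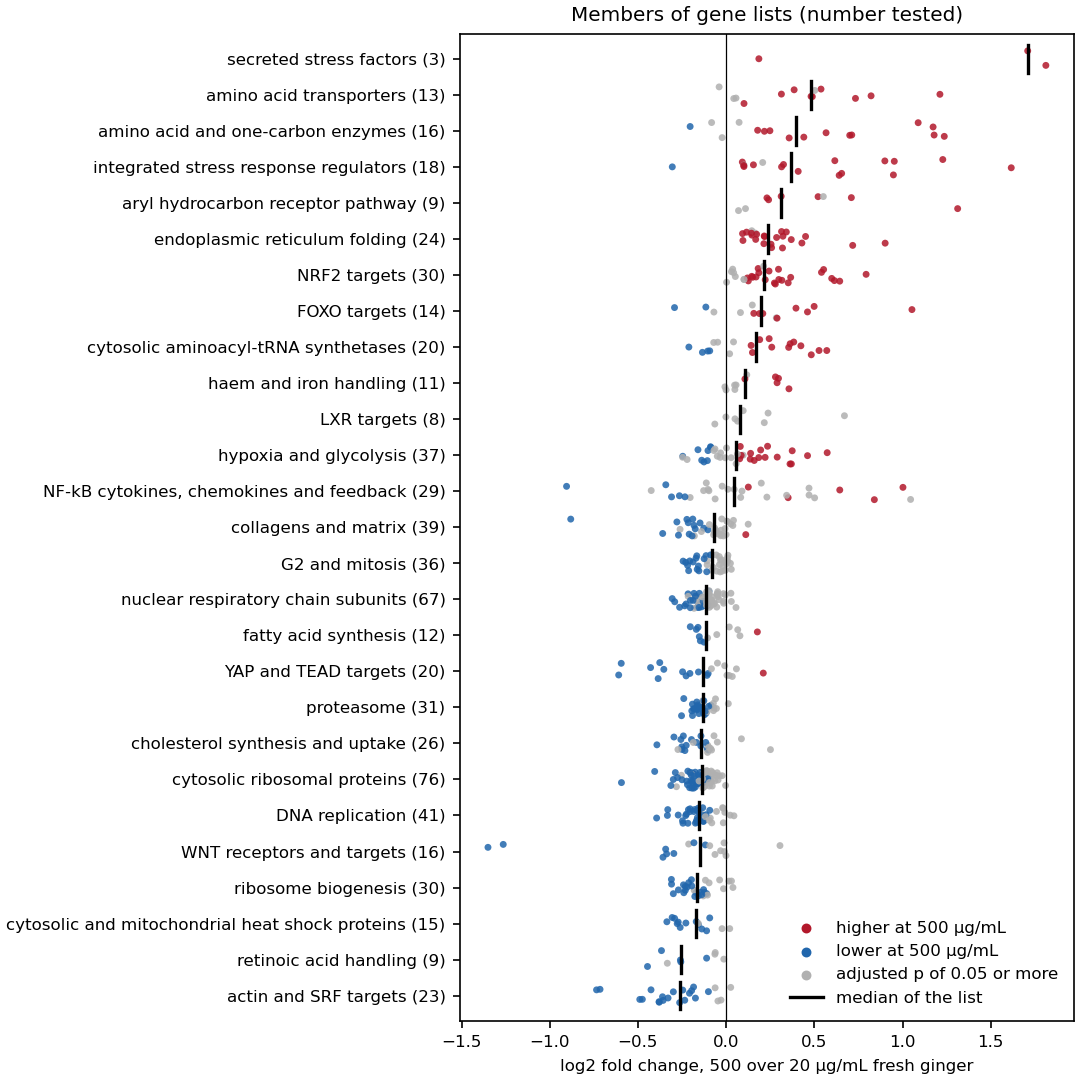
Log2 fold changes at 500 over 20 µg/mL fresh ginger for the tested members of 27 gene lists, 1 point a gene, ordered by the median (black bar). Red members rose, blue members fell and grey members did not pass. The amino acid and stress lists, endoplasmic reticulum folding and NRF2 targets sit right of 0, and actin, heat shock and replication genes sit left of it.

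Regulators of the integrated stress response rose in 15 of 18 cases and fell in 1, with a median log2 fold change of 0.37, where the median over all tested genes was -0.00. ATF4, the factor at the centre of the response, stood at 176, 182 and 171 CPM at the high dose and 115, 111 and 113 CPM at the low dose (0.64 ± 0.03, adjusted p = 7.9e-22). All 3 high-dose libraries were above the others, and the vehicle mean was 101 CPM. CHAC1, an enzyme that degrades glutathione and a late target of ATF4, stood at 13.2, 11.5 and 12.2 CPM and 3.6, 3.91 and 4.59 CPM, a 3.07-fold rise (1.62 ± 0.10). TRIB3, a pseudokinase that feeds back on ATF4, stood at 49.8, 49.6 and 48.1 CPM and 18.9, 22.8 and 21.3 CPM (1.23 ± 0.05). DDIT3, which encodes the factor CHOP, stood at 42.9, 45.1 and 44.7 CPM and 28.3, 28.6 and 27.2 CPM (0.65 ± 0.07). DDIT4, a brake on the growth kinase mTORC1, stood at 167, 178 and 169 CPM and 94.9, 87.9 and 92.7 CPM (0.90 ± 0.04). The member that fell was ATF5, a relative of ATF4, at 25.1, 25.3 and 26.7 CPM against 34.2, 29.6 and 31.5 CPM (-0.31 ± 0.06). The vehicle mean of ATF5, 25.9 CPM, lay within its high-dose values.

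Of 4 secreted stress factors 3 could be tested and all 3 rose. ADM2, a peptide of the calcitonin family, stood at 7.16, 7.7 and 7.41 CPM at the high dose and 2.2, 2.44 and 2.14 CPM at the low dose, a 3.27-fold rise (1.71 ± 0.12). STC2, a glycoprotein that inhibits a protease of the growth factor system, rose less, from a higher level (669, 646 and 676 CPM against 610.4, 548 and 593 CPM, 0.19 ± 0.03). FGF21, another hormone of the response, had 0 counts in every fresh ginger library. STC2 did not overlap between the doses, which the rule for the largest rises already asks of GDF15 and ADM2.

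Enzymes that make amino acids and feed the folate cycle rose in 12 of 16 cases and fell in 1 (median 0.40). ASNS, which makes asparagine (ENSG00000070669, minus strand of chromosome 7 from 97852118 to 97872542), stood at 117, 121 and 122 CPM at 500 µg/mL, against 49.8, 49.2 and 53.8 CPM at 20 µg/mL (1.24 ± 0.03, adjusted p = 1.0e-35). The groups were far apart, and the vehicle libraries, at 48.9, 49.6 and 49.1 CPM, lay with the low dose. PSAT1, of serine synthesis, stood at 133, 139 and 140.0 CPM and 62.6, 68.1 and 63 CPM (1.09 ± 0.03). CBS, which joins serine and homocysteine on the way to cysteine, stood at 17.4, 16.8 and 18.3 CPM and 7.7, 7.39 and 8.16 CPM (1.18 ± 0.07). ALDH1L2, the mitochondrial enzyme that oxidises formyl folate, stood at 45.3, 40.1 and 42.6 CPM and 18.8, 19 and 19 CPM (1.17 ± 0.07). MTHFD1, the cytosolic folate enzyme, moved the other way, at 188, 187 and 189 CPM against 215, 209 and 225 CPM (-0.20 ± 0.03).

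Amino acid transporters rose in 9 of 13 tested cases and fell in 0 (median 0.48). SLC7A11, the cystine importer, stood at 313, 312 and 300.1 CPM at the high dose and 132, 134 and 133 CPM at the low dose (1.21 ± 0.04, adjusted p = 2.5e-31). SLC6A9, the glycine transporter of glia, stood at 58.7, 59.2 and 59.1 CPM and 35, 33.6 and 31.4 CPM (0.82 ± 0.04). SLC7A5, which imports large neutral amino acids, stood at 284, 270.4 and 297 CPM and 169, 173 and 171 CPM (0.73 ± 0.03). For each of these the lowest high-dose library was above the highest low-dose library by a wide margin. SLC1A5, the glutamine importer, rose by 0.48 ± 0.03.

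Cytosolic aminoacyl-tRNA synthetases, which load tRNAs with their amino acids, split: 12 of 20 rose and 4 fell (median 0.17). GARS1, for glycine, stood at 296, 289 and 281 CPM at the high dose and 191, 197 and 195 CPM at the low dose (0.57 ± 0.02). AARS1, for alanine, stood at 274, 276 and 278 CPM and 186, 191 and 198 CPM (0.53 ± 0.03), and WARS1, for tryptophan, rose by 0.48 ± 0.03. IARS1, for isoleucine, rose by 0.38 ± 0.02. The 4 that fell did so by less: FARSA, a subunit for phenylalanine, by 0.21 ± 0.04 on the log2 scale, HARS1, for histidine, by 0.13 ± 0.03, KARS1, for lysine, by 0.10 ± 0.03 and VARS1, for valine, by 0.09 ± 0.03. VARS1 passed at an adjusted p of 0.03, and without high-dose library 1 or 2 or low-dose library 2 or 3 it was 0.056 to 0.13.

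Folding genes of the endoplasmic reticulum rose in 22 of 24 cases and fell in 0 (median 0.24), and their summed level was 15954 to 16373 CPM at the high dose and 13636 to 13786 CPM at the low dose. HSPA5, the main chaperone of the compartment and a marker of the unfolded protein response (ENSG00000044574, minus strand of chromosome 9 from 125234853 to 125241330), stood at 5145, 4893 and 5129 CPM at 500 µg/mL, against 3899, 3856 and 3988 CPM at 20 µg/mL (0.37 ± 0.03, adjusted p = 2.0e-16). The medium-dose libraries, at 4928, 4859 and 4871 CPM, were close to the high dose, and the vehicle mean was 3602 CPM. HERPUD1, of the pathway that sends misfolded proteins to degradation, stood at 155, 147 and 146 CPM and 80.6, 82.4 and 76.9 CPM (0.90 ± 0.04). DNAJB9, a cochaperone of HSPA5, stood at 51.9, 48.4 and 50.2 CPM and 32.2, 30.6 and 28.5 CPM (0.72 ± 0.05), and SEL1L, of the same degradation pathway, rose by 0.32 ± 0.02. No folding gene on the list fell, and the number that rose was 22 or 23 with low-dose library 1 left out, the exon length trend taken out, or both.

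**Figure D3:**
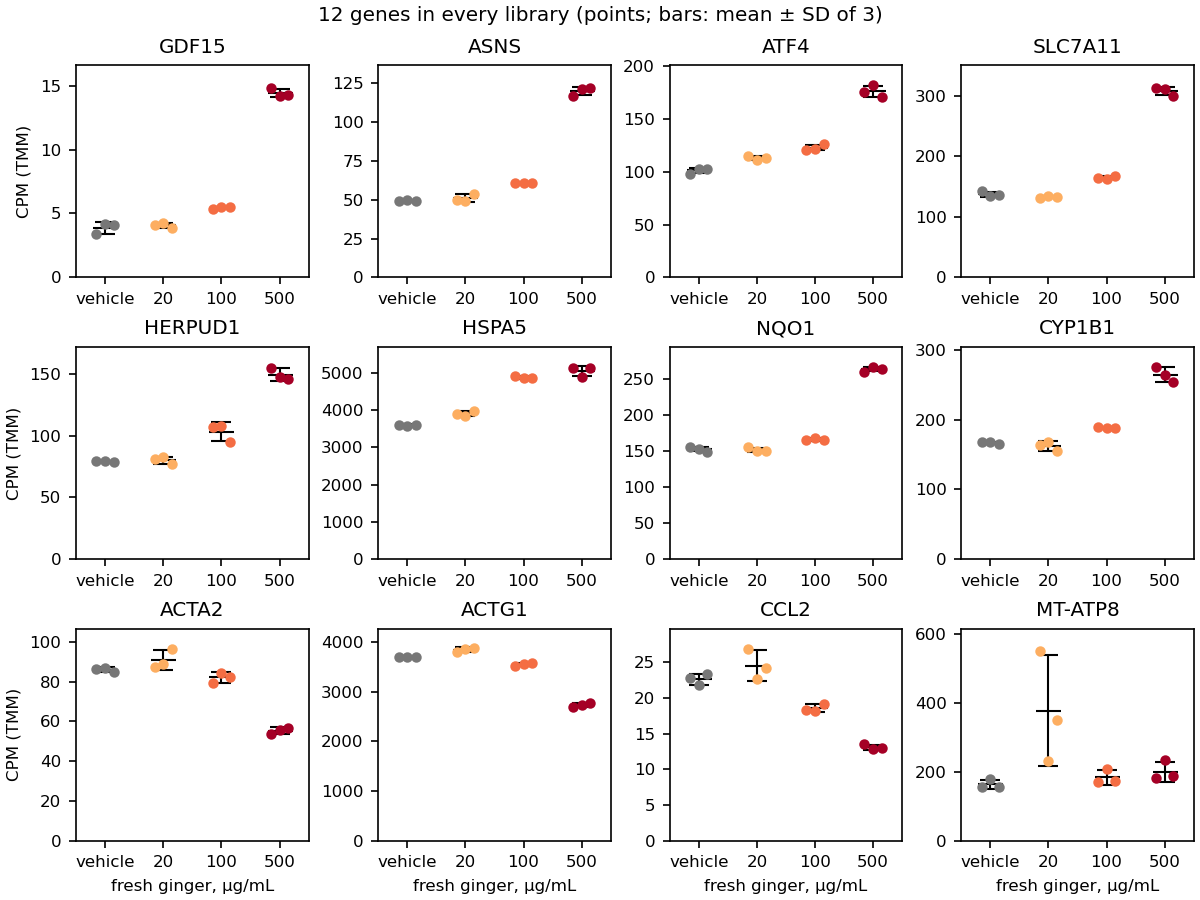
CPM of 12 genes in every library, by fresh ginger dose in µg/mL, with points for libraries and bars for the mean ± SD of 3. The vehicle libraries carry another description code than the ginger libraries. GDF15, ASNS, SLC7A11 and NQO1 were highest in all 3 libraries at 500 µg/mL, HSPA5 was already raised at 100 µg/mL, and MT-ATP8 stood apart at 20 µg/mL.

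Targets of NRF2 rose in 22 of 30 cases and fell in 0 (median 0.22). NQO1, the quinone reductase that serves as a marker of NRF2 (ENSG00000181019, minus strand of chromosome 16 from 69706996 to 69726951), stood at 259.8, 266 and 264 CPM at 500 µg/mL, against 155, 149.9 and 150.4 CPM at 20 µg/mL, a 1.73-fold rise (0.79 ± 0.03, adjusted p = 2.2e-29). FTL, the light chain of the iron store ferritin, stood at 1681, 1725 and 1607 CPM and 1103, 1072 and 1033 CPM (0.64 ± 0.04). The vehicle mean of FTL was 1000.3 CPM, just under the low-dose libraries. HMOX1, which breaks down haem, stood at 91.7, 84.1 and 89 CPM and 57.8, 61.7 and 55.3 CPM (0.60 ± 0.06). TXNRD1, the thioredoxin reductase, rose by 0.35 ± 0.03.

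Genes of haem and iron handling rose in 5 of 11 tested cases and fell in 0 (median 0.11). SLC48A1, which carries haem out of lysosomes, rose by 0.36 ± 0.06. ALAS1, the first enzyme of haem synthesis, rose by 0.30 ± 0.03 and FECH, the last, by 0.29 ± 0.05. ABCB6, a porphyrin transporter, rose by 0.28 ± 0.07. Of the metallothioneins and zinc genes, 6 were tested and 0 passed.

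The aryl hydrocarbon receptor senses planar foreign compounds and induces enzymes that oxidise them. Of 9 tested genes of its pathway 6 rose and 0 fell (median 0.31). CYP1B1, a cytochrome of that set, stood at 276, 264 and 255 CPM at the high dose and 164, 168 and 155 CPM at the low dose (0.71 ± 0.04, adjusted p = 1.8e-22). TIPARP, a feedback enzyme, stood at 65.2, 67.1 and 65.2 CPM and 44.9, 48 and 44.6 CPM (0.52 ± 0.05), ALDH1A3, a maker of retinoic acid, rose by 0.31 ± 0.02 and AHRR, the repressor of the receptor, by 0.24 ± 0.04. CYP1A1, the classic target, was near 1 CPM and did not pass, with 1.03, 1.11 and 0.774 CPM against 0.95, 0.837 and 0.911 CPM (0.11 ± 0.27).

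Hypoxia and glycolysis genes were mixed, with 16 of 37 higher and 8 lower (median 0.06). Members that rose included NDRG1, a stress gene that hypoxia induces (70.1, 68.8 and 70.5 CPM against 48.1, 46 and 46.6 CPM, 0.57 ± 0.05), ANGPTL4, an inhibitor of lipoprotein lipase (0.46 ± 0.05), VEGFA, the angiogenic factor (0.37 ± 0.04), and BNIP3L, of mitophagy (0.22 ± 0.03). Those that fell were mainly enzymes and transporters of glycolysis: PFKFB4 by 0.25 ± 0.06 on the log2 scale, SLC16A3 by 0.16 ± 0.04, PGAM1 by 0.14 ± 0.03, PKM by 0.11 ± 0.03 and ENO1 by 0.10 ± 0.03. Without low-dose library 1 the list had 10 higher and 7 lower.

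Targets of FOXO, the factors that insulin signalling holds back, rose in 8 of 14 cases and fell in 2 (median 0.20). IGFBP1, which binds insulin-like growth factors and is also under ATF4, stood at 54.7, 56.5 and 54.3 CPM at the high dose and 27.6, 25.3 and 26.7 CPM at the low dose (1.05 ± 0.05, adjusted p = 1.7e-22). CCNG2, an inhibitory cyclin, rose by 0.46 ± 0.07 and KLHL24, an adaptor of a ubiquitin ligase, by 0.40 ± 0.06. GADD45B, a stress sensor, fell by 0.29 ± 0.07 on the log2 scale. The count of rising members was 5 without high-dose library 2 or low-dose library 2. Of 7 genes of the glucose sensor MondoA and the arrestin family 2 rose and 0 fell. ARRDC3, an adaptor of receptor turnover, was among those that rose (0.37 ± 0.04), and TXNIP, the best known target of MondoA, did not pass (6.73, 7.06 and 7.33 CPM against 7.36, 7.39 and 8.04 CPM). Among 29 lysosome and autophagy genes 6 rose and 3 fell. That is 31.0% of the list against 23.3% of all tested genes, so the counts are not read as a result about the list. WIPI1, of the forming autophagosome, rose by 0.45 ± 0.06, NPC1, the lysosomal cholesterol exporter, by 0.26 ± 0.03, and ULK1 and MAP1LC3B, which start and coat the autophagosome, by 0.24 ± 0.06 and 0.17 ± 0.03. TFEB, the master factor of lysosome genes, fell by 0.27 ± 0.07 on the log2 scale.

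Genes of the actin cytoskeleton and of SRF, the factor that free actin controls, fell in 19 of 23 cases and rose in 0 (median -0.26). ACTA2, smooth muscle actin (ENSG00000107796, minus strand of chromosome 10 from 88935074 to 88991339), stood at 53.7, 55.6 and 56.8 CPM at 500 µg/mL, against 87.4, 88.8 and 96.5 CPM at 20 µg/mL, a fall of 39.1% (-0.72 ± 0.04, adjusted p = 7.2e-20). ACTG1, cytoplasmic gamma actin, stood at 2698, 2735 and 2781 CPM and 3792, 3859 and 3884 CPM (-0.49 ± 0.03). The vehicle means, 85.9 and 3694 CPM, were on the low-dose side of both genes. TPM1, a tropomyosin, fell by 0.38 ± 0.03 on the log2 scale and CNN2, a calponin, by 0.33 ± 0.03. Actins are close paralogs, and which of them a shared read was assigned to cannot be read from the table. The count was 19 without low-dose library 1 and 21 with the exon length trend taken out.

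Targets of YAP and TEAD, which respond to cell tension and density, fell in 12 of 20 cases and rose in 1 (median -0.13). ANKRD1, a muscle ankyrin protein, stood at 8.04, 8.47 and 8.96 CPM at the high dose and 12.8, 11.6 and 14.7 CPM at the low dose (-0.61 ± 0.09). NUAK2, a kinase, stood at 8.56, 8.51 and 9.28 CPM and 12.8, 13.1 and 13.9 CPM (-0.59 ± 0.07). CCN2, a matricellular factor, stood at 77.5, 84.1 and 90 CPM and 104, 101 and 124 CPM (-0.39 ± 0.07), and AJUBA, an adaptor at junctions, fell by 0.25 ± 0.04 on the log2 scale. IGFBP3 rose (0.21 ± 0.03). In the 3 falling genes given by library the doses did not overlap, as in 3803 of the 4090 genes that differed.

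Collagens and matrix genes fell in 15 of 39 cases and rose in 1 (median -0.07). COL1A1, a chain of collagen I, stood at 2808, 2862 and 2919.9 CPM at the high dose and 3261, 3288 and 3384 CPM at the low dose (-0.21 ± 0.03), and its partner COL1A2 fell by 0.19 ± 0.03 on the log2 scale. THBS1, an adhesive glycoprotein that activates TGF-beta, stood at 1411, 1438 and 1474 CPM and 1741, 1825 and 1982 CPM (-0.36 ± 0.04), and THBS2 fell by 0.21 ± 0.04. With the exon length trend taken out, 23 members fell. Of 17 TGF-beta and BMP response genes 3 fell, 6 with that trend taken out and 5 without low-dose library 1. The 3 were 17.6% of the list, where 11.9% of all tested genes fell, so the count is not read as a result about the list. PMEPA1, a brake on the receptors, stood at 140.0, 130.3 and 142 CPM at the high dose and 176, 178 and 173 CPM at the low dose (-0.35 ± 0.03, adjusted p = 1.1e-13). It did not overlap between the doses and was among the 3 members that fell, as was BAMBI, a decoy receptor (-0.39 ± 0.09).

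WNT receptors and targets fell in 8 of 16 tested cases and rose in 0 (median -0.15). Beside LGR6 these were led by the receptor FZD2 (-0.36 ± 0.05), the ligand WNT5B (-0.34 ± 0.05) and the transcription factor TCF7 (-0.34 ± 0.04). Genes of retinoic acid handling fell in 5 of 9 cases and rose in 0 (median -0.26). ALDH1A3, a maker of retinoic acid that was counted with the aryl hydrocarbon receptor pathway and not here, rose (0.31 ± 0.02). CYP26B1, which degrades retinoic acid, stood at 33.3, 32.4 and 32.9 CPM at the high dose and 41.3, 43.6 and 42.2 CPM at the low dose (-0.37 ± 0.05). CRABP2, a retinoic acid carrier (-0.45 ± 0.10), the receptor RARB (-0.26 ± 0.06) and STRA6, which imports retinol (-0.26 ± 0.04), fell too. Of 10 Notch pathway genes 0 passed. KRT18, an epithelial keratin kept among the markers of other cells, fell (139, 132 and 143 CPM against 208, 212 and 201 CPM, -0.59 ± 0.04), as did PTPRC, the leukocyte antigen CD45 (9.55, 9.36 and 9.04 CPM against 11.6, 12.4 and 14.1 CPM, -0.44 ± 0.07). Of the 7 tested markers of other cells these 2 fell, 1 rose and 4 did not pass, and the rise was lost with any 1 of the 6 libraries left out. The summed level of the 7 was 182 to 194 CPM at the high dose and 255 to 263 CPM at the low dose. Most of that sum was KRT18, so it is not read as a fall of the markers as a set. Their part in other results was not tested.

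Cholesterol synthesis and uptake genes fell in 15 of 26 cases and rose in 0 (median -0.14). LSS, which closes the sterol rings, stood at 58.1, 58.5 and 60.2 CPM at the high dose and 72, 68.4 and 70.1 CPM at the low dose (-0.25 ± 0.04, adjusted p = 2.3e-07). INSIG1, which holds back the SREBP factors, stood at 114, 112 and 114 CPM and 126, 139 and 132 CPM (-0.23 ± 0.04). HMGCS1, of the first steps, fell by 0.20 ± 0.04 on the log2 scale. Fatty acid synthesis genes fell in 6 of 12 cases and rose in 1 (median -0.12), with FASN at -0.20 ± 0.04, ACLY at -0.17 ± 0.03, the desaturases FADS2 at -0.16 ± 0.04 and SCD at -0.13 ± 0.03. The doses did not overlap in any of these 7 genes, as in 3803 of the 4090 genes that differed. Of 8 targets of LXR, the factor that exports surplus sterol, 0 passed, and ABCA1 stood at 62.2, 60.4 and 61.7 CPM against 57.6, 59.7 and 60.9 CPM.

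DNA replication genes fell in 28 of 41 cases and rose in 0 (median -0.15). UHRF1, which carries methylation marks through replication, stood at 61.6, 63 and 65.1 CPM at the high dose and 84, 81 and 84.1 CPM at the low dose (-0.39 ± 0.03, adjusted p = 3.3e-13). MCM7 and MCM3, subunits of the replicative helicase, fell by 0.27 ± 0.03 and 0.24 ± 0.03 on the log2 scale, and E2F1, a factor of S phase entry, by 0.21 ± 0.04. Genes of G2 and mitosis fell in 15 of 36 cases and rose in 0 (median -0.08), with ANLN, of the contractile ring, at -0.22 ± 0.03 and CDC20, of anaphase, at -0.21 ± 0.04. MKI67, the proliferation antigen, fell by 0.16 ± 0.05, and its adjusted p of 0.0098 was 0.057 without high-dose library 2 and 0.075 without low-dose library 3. In RNA from whole cultures, fewer cycling cells and less of these RNAs per cell cannot be told apart. Among 22 targets of p53, the damage sensor, 5 rose and 3 fell, 36.4% of the list against 23.3% of all tested genes. The counts are not read as a result about the list. The cell cycle inhibitor CDKN1A (29.6, 29.2 and 25 CPM against 21.1, 24.1 and 22.1 CPM, 0.31 ± 0.05) and the death receptor TNFRSF10B (0.33 ± 0.03), which CHOP also induces, were higher, and the damage genes GADD45A (-0.28 ± 0.05) and AEN (-0.22 ± 0.05) were lower.

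Heat shock proteins of the cytosol and mitochondria fell in 12 of 15 cases and rose in 0 (median -0.17), and the sum of the list was 4747 to 4882 CPM at the high dose and 5503 to 5589 CPM at the low dose. HSPA8, the constitutive chaperone, stood at 902, 911 and 865 CPM and 1124, 1129 and 1128 CPM (-0.34 ± 0.03, adjusted p = 8.2e-14). DNAJB1 (-0.27 ± 0.03) and DNAJA1 (-0.26 ± 0.04), its partners, and the chaperone HSP90AB1 (-0.17 ± 0.03) fell as well. Ribosome biogenesis genes fell in 20 of 30 cases and rose in 0 (median -0.16), with NOP56 (-0.31 ± 0.04), BOP1 (-0.30 ± 0.04), NPM1 (-0.24 ± 0.03) and NCL (-0.23 ± 0.03), all of the nucleolus. Without low-dose library 1 the counts of these lists were 10 and 17.

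Other falling lists lost calls when single libraries were left out, and most without low-dose library 1. Cytosolic ribosomal proteins fell in 37 of 76 cases (median -0.14), but in 14 without that library (median -0.11). They fell in 21 without high-dose library 1, in 25 without high-dose library 3 and in 35 with the exon length trend alone taken out. With no filter on low counts 65 fell, and 56 with the 2 compared groups fitted alone. RPL41, the shortest of them, stood at 475, 405 and 474 CPM at the high dose and 659.7, 538 and 597 CPM at the low dose (-0.41 ± 0.08, and -0.33 without low-dose library 1), and the vehicle mean was 479.7 CPM. RPS26 fell by 0.30 ± 0.06 on the log2 scale and by 0.28 without it. Ribosomal protein genes have many pseudogene copies, so their counts are uncertain. Nuclear genes of the respiratory chain fell in 22 of 67 cases (median -0.11) and in 6 without low-dose library 1 (median -0.09). They fell in 9 without high-dose library 1, in 9 without high-dose library 3 and in 35 with no filter on low counts. ATP5MC1, of the ring of ATP synthase, stood at 69.1, 78.2 and 69.3 CPM and 96.9, 80.4 and 90.2 CPM (-0.31 ± 0.06, and -0.24 without low-dose library 1).

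Host transcripts of small nucleolar RNAs fell in 7 of 15 cases (median -0.17) and in 3 without low-dose library 1 (median -0.08). They fell in 4 without high-dose library 3 and in 4 with the compared groups fitted alone. SNHG12 stood at 16.2, 17 and 17.2 CPM at the high dose and 24, 19.7 and 22.5 CPM at the low dose (-0.39 ± 0.07), and ZFAS1 fell by 0.29 ± 0.07 on the log2 scale. Proteasome subunits fell in 23 of 31 cases (median -0.13). They fell in 17 without low-dose library 1 (median -0.12), and in 18 without high-dose library 1 or high-dose library 3. The count was 15 with both the exon length trend taken out and low-dose library 1 left out. Those named by the rule, PSMC1 (-0.25 ± 0.04), PSMD11 (-0.19 ± 0.03), PSMD3 (-0.19 ± 0.03) and PSMD2 (-0.17 ± 0.03), are subunits of its regulatory cap. No ribosomal protein, respiratory chain, small nucleolar RNA host or proteasome gene of these lists rose. SNHG12 and ZFAS1 are annotated as antisense genes, and with no strand setting stated by the authors their counts are uncertain.

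Of 13 mRNAs encoded by the mitochondrial genome 2 fell, 9 with no filter on low counts, 4 without low-dose library 3 and 1 without low-dose library 1. The 2 were 15.4% of the list, where 11.9% of all tested genes fell, so the count is not read as a result about the list. MT-ATP8, a subunit of ATP synthase whose reading frame overlaps MT-ATP6, stood at 181, 234 and 187 CPM at the high dose and 549, 231 and 349 CPM at the low dose, so that the groups overlapped (-0.91 ± 0.17). The medium-dose libraries were at 170.3, 208 and 173 CPM and the vehicle mean at 163 CPM, so only low-dose libraries 1 and 3 stood out. Without low-dose library 1 the log2 fold change was -0.53 (adjusted p = 0.015). MT-ND6, a subunit of complex I read from the other strand, stood at 247, 250.2 and 299 CPM and 457, 286 and 311 CPM (-0.41 ± 0.15), and without low-dose library 1 it was at -0.17 (adjusted p = 0.53). Its call was also lost without high-dose library 1 or 2. The summed level of the 13 mRNAs was 46591 to 47101 CPM at the high dose and 42895 to 53166 CPM at the low dose.

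**Figure D4:**
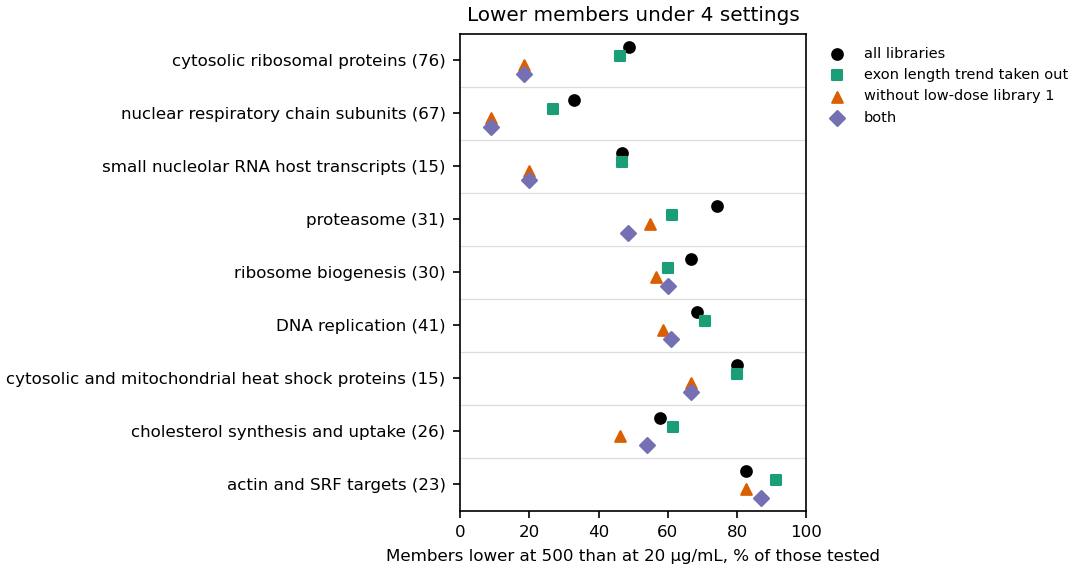
Share of tested list members that fell at 500 against 20 µg/mL fresh ginger, in percent, under 4 settings, with the number tested in brackets. Ribosomal proteins, respiratory chain subunits and small nucleolar RNA hosts lost most of their calls without low-dose library 1 (18.4%, 9.0% and 20.0%, against 48.7%, 32.8% and 46.7% with all libraries), and actin and SRF targets did not (82.6% in both).

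Of 29 tested NF-kB cytokines, chemokines and feedback genes 5 rose and 5 fell (median 0.05), where 11.4% of all tested genes rose and 11.9% fell, so the counts are not read as a result about the list. CCL2, the monocyte chemokine, stood at 13.5, 12.8 and 13 CPM at the high dose and 26.8, 22.6 and 24.2 CPM at the low dose, a fall of 46.6% (-0.90 ± 0.06, adjusted p = 2.0e-16). TNFAIP3, which ends NF-kB signals, fell by 0.31 ± 0.07 on the log2 scale and the cytokine IL11 by 0.26 ± 0.05. IL1B, the inflammatory cytokine, rose from a low level, at 5.33, 5.7 and 5.54 CPM against 3.43, 3.1 and 4.12 CPM (0.64 ± 0.12). CXCL8, the neutrophil chemokine, stood at 7.28, 5.62 and 6.31 CPM against 5.63, 5.02 and 5.78 CPM and did not pass (0.23 ± 0.12, adjusted p = 0.16). The number that fell was 5 with each library left out, but the 5 rises became 1 without high-dose library 2 or 3 and 2 without any 1 of the low-dose libraries, and 3 with no filter, with DESeq2 or with fewer groups in the fit.

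Immediate early genes and feedback genes of the kinase ERK rose in 7 of 29 cases and fell in 4. That is 37.9% of the list against 23.3% of all tested genes. The phosphatase DUSP6 (0.42 ± 0.05), PHLDA1 (0.29 ± 0.04) and the receptor inhibitor SPRY2 (0.24 ± 0.05) were higher, and the transcription factors KLF10 and IER2 were lower (-0.22 ± 0.04 and -0.22 ± 0.05). The 4 falls became 2 without high-dose library 2. Of 20 interferon and MHC class I genes 1 rose and 1 fell, 10.0% of the list against 23.3% of all tested genes. IFI6, an interferon-induced mitochondrial protein, stood at 22.6, 27.6 and 27.4 CPM against 39.7, 28.9 and 30.5 CPM (-0.36 ± 0.10), and without low-dose library 1 it was at -0.20 and without high-dose library 1 at -0.27 (adjusted p of 0.09 to 0.21).

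Receptors for the pungent compounds of ginger were expressed at low levels. TRPV1, the capsaicin receptor, stood at 10.9, 11.4 and 11.2 CPM at the high dose and 11.1, 11.1 and 9.94 CPM at the low dose (0.05 ± 0.07). TRPA1, the mustard oil receptor, stood at 1.55, 0.808 and 1.55 CPM and 1.05, 1.12 and 0.99 CPM (0.31 ± 0.38), and neither passed. Of the 7 tested channels of the family 2 rose and 1 fell, and TRPC1, a subunit of another branch, was among those that rose (0.31 ± 0.06). Of 8 tested eicosanoid enzymes 1 rose and 1 fell, 25.0% of the list against 23.3% of all tested genes. LTA4H, which makes leukotriene B4, stood at 79.9, 77.5 and 81.3 CPM and 71.9, 74.1 and 72.3 CPM (0.13 ± 0.03). PTGS2, the inducible cyclooxygenase, kept apart from that list, stood at 108, 106 and 105 CPM and 97.6, 98.5 and 96.2 CPM (0.13 ± 0.05). Its adjusted p was 0.046, and 0.055 to 0.16 without any 1 of the 6 libraries.

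The dose series was read in its steps, which share the medium-dose libraries. At 100 against 20 µg/mL 186 genes differed (1.06%), 117 higher (0.666%) and 69 lower (0.393%), and at 500 against 100 µg/mL 1873 differed (10.7%), 871 higher (4.96%) and 1002 lower (5.70%). The count of the lower step rested on single libraries: it was 44, 354 and 99 without low-dose libraries 1, 2 and 3, and 70 and 78 without medium-dose libraries 1 and 3. For 3590 of the 4090 genes that differed between 500 and 20 µg/mL the medium-dose mean lay between them, as it did for 8667 of all 17569. Of the 4090, 1592 also differed in the same direction in the upper step and 174 in the lower.

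The lists differed in the step at which members passed. Folding genes rose in 10 of 24 cases in the lower step, and in the upper step 11 rose and 1 fell. HSPA5 changed by 0.32 (adjusted p = 2.1e-12) from 20 to 100 µg/mL, and by 0.05 (adjusted p = 0.26) from 100 to 500 µg/mL. HERPUD1, on the same list, gained 0.37 in the lower step and 0.53 in the upper. ASNS changed by 0.26 (adjusted p = 1.2e-06) and 0.98 (adjusted p = 7.3e-31), GDF15 by 0.41 (adjusted p = 0.049) and 1.41 (adjusted p = 1.9e-18). Amino acid enzymes rose in 4 of 16 cases in the lower step, and in the upper step 12 rose and 2 fell. NRF2 targets rose in 2 of 30 cases in the lower step and 23 in the upper. FTL stood at 1083, 1156 and 1036 CPM at 100 µg/mL, close to the low-dose values. Actin and SRF targets fell in 1 of 23 cases in the lower step and 19 in the upper, cholesterol genes in 0 of 26 and 13, and heat shock proteins in 0 of 15 and 9. Whether the steps differ was not tested.

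The difference between the gingers was tested as the change from 20 to 500 µg/mL under fresh ginger minus the same change under dried ginger. It was called for 143 genes (0.814%), 89 above 0 (0.507%) and 54 below (0.307%). Above 0 were 7 of 18 stress response regulators, 5 of 16 amino acid enzymes, 6 of 13 transporters, 5 of 20 tRNA synthetases and 4 of 24 folding genes. ASNS stood at 117, 121 and 122 CPM under high-dose and 49.8, 49.2 and 53.8 CPM under low-dose fresh ginger, and at 80.3, 79.1 and 81.7 CPM and 49.1, 47.6 and 48.4 CPM under dried ginger. Both gingers raised it, fresh ginger by 0.51 ± 0.05 more on the log2 scale (adjusted p = 1.2e-11). For GDF15 the excess was 0.81 ± 0.14 (adjusted p = 2.5e-04), for CHAC1 0.78 ± 0.14 (adjusted p = 8.0e-04), for PSAT1 0.59 ± 0.05 (adjusted p = 2.3e-12) and for ATF4 0.25 ± 0.05 (adjusted p = 0.0017).

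Other lists did not pass in the difference, or went the other way. Of 30 NRF2 targets 0 were called, and the difference for NQO1 was -0.00 ± 0.04, with dried ginger at 266, 265 and 260.2 CPM against 154, 147 and 155 CPM. HSPA5 (-0.03 ± 0.04), CYP1B1 (-0.18 ± 0.05, adjusted p = 0.066) and ACTA2 (-0.10 ± 0.06) did not pass, and a p that misses the threshold does not show that the gingers act alike. Below 0 were 7 of 29 NF-kB genes. CXCL8 stood at 7.28, 5.62 and 6.31 CPM under high-dose and 5.63, 5.02 and 5.78 CPM under low-dose fresh ginger, and at 12.9, 12.1 and 12.8 CPM and 4.16, 4.44 and 4.61 CPM under dried ginger (difference -1.28 ± 0.16, adjusted p = 3.4e-07). Under dried ginger CCL2 stood at 21.1, 20.3 and 20.8 CPM at the high dose and 22, 21.1 and 22.3 CPM at the low dose, and the difference was -0.83 ± 0.09 (adjusted p = 3.4e-09). SERPINB2, a serpin that blocks urokinase, fell under fresh ginger (-0.46 ± 0.06) where its log2 fold change was 0.47 ± 0.05 under dried ginger (difference -0.93 ± 0.08, adjusted p = 2.3e-12). ALDH1A3 rose under fresh ginger by 0.31 ± 0.02 and had a log2 fold change of 0.69 under dried ginger (difference -0.38 ± 0.03, adjusted p = 4.6e-14). The count of 143 was 80 without low-dose library 1 of fresh ginger, 286 without its low-dose library 2 and 86 without its high-dose library 1. It was 93 without low-dose library 1 of dried ginger, and 84 and 223 without its high-dose libraries 2 and 3.

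**Figure D5:**
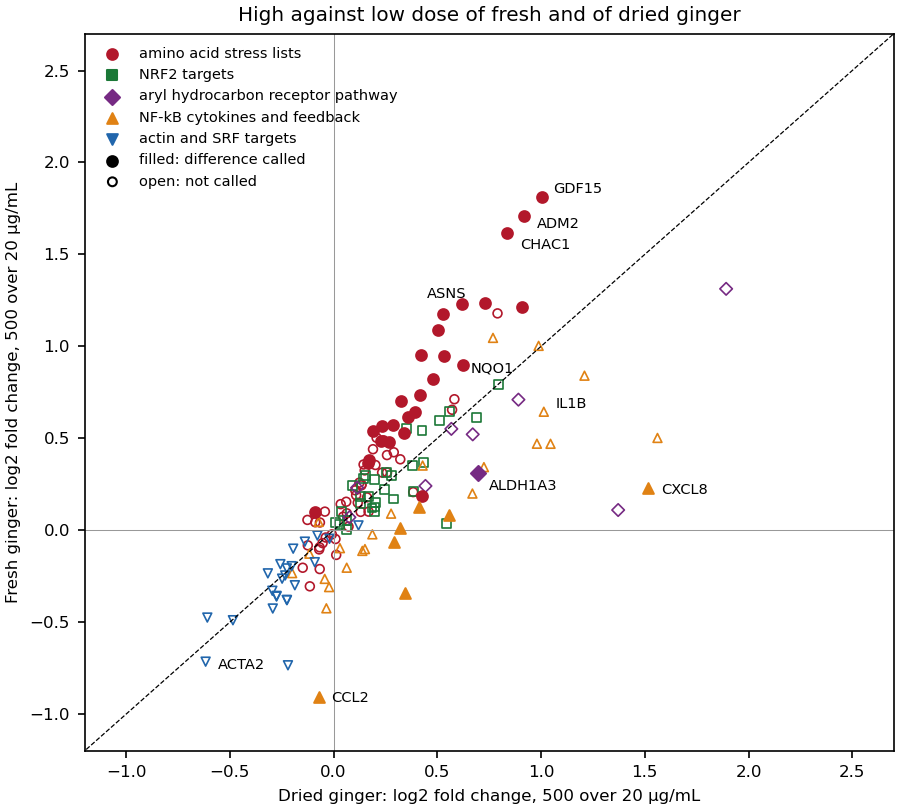
Log2 fold change at 500 over 20 µg/mL under fresh ginger (vertical) against dried ginger (horizontal) for 161 members of 9 lists. Filled points are the 34 genes whose difference between the gingers was called, and the dashed line marks equal change. Filled members of the amino acid stress lists lie above the line, with the exception of STC2, and the filled NF-kB genes and ALDH1A3 lie below it.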

How the data were processed

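RNA of SW1783 cells was sequenced as paired reads of 100 bases after a directional library kit, from RNA with an integrity number above 7, per the labels' protocols. The authors deposited a table of expected counts per gene for all 60 libraries, in which 90.5% of values were whole at 2 decimals. RSEM 1.3.3, STAR 2.7.3a, Trim Galore 0.6.5, FastQC 0.11.9 and the build GRCh38 appear in the submitters' processing notes. For the annotation release, strand setting and aligner parameters: not given in the sources used here. Estimated counts divide reads among similar genes, which makes paralogs, pseudogenes and overlapping genes uncertain.

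The expected counts were rounded, which changed library totals by at most 2.2e-04%. Of 60675 genes 37383 had a count and 17569 passed edgeR's filter on low counts over the 20 groups. All 60 libraries were fitted by group with edgeR 4.0.16 in R 4.3.3 (TMM scaling, quasi-likelihood F test, 40 residual degrees of freedom, biological coefficient of variation 3.2%), and p-values were adjusted by Benjamini-Hochberg over the tested genes. Standard errors are the log2 fold change over the root of F. CPM use TMM-scaled totals. The scripts were tested on simulated data. A gene-name table matched 56558 identifiers and GENCODE 29 another 497; gene coordinates came from GENCODE 29 on GRCh38.

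Named genes were the 8 largest rises and falls with separate groups and a mean log2 CPM of at least 1, up to 4 members with the smallest p in each list, members that moved against their list, any member of a list with at most 8 tested, and some single genes; untested markers and motif holders are named besides. A few genes that the rule picks are not reported here. The members, lists and motifs were chosen with earlier results of these data known. Alternatives were relative log expression scaling, no filter, a replicate block, an exon length trend taken out, DESeq2 1.42.0, fewer groups in the fit and each library left out. The exon length trend together with low-dose library 1 left out was chosen after seeing the data.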

Additional observations from a re-analysis of the deposited data

Results flagged for a closer look

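The change from 20 to 500 µg/mL differed between fresh and dried ginger, by the test of the difference itself, for 29 of the genes named above, 21 above 0 and 8 below. The values are log2 differences, fresh minus dried, called by edgeR's quasi-likelihood test with Benjamini-Hochberg adjustment. With 3 libraries in each group, no test for outlying libraries was made by gene, and calls lost with a library left out are given below.

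Among regulators and secreted factors the difference was 0.81 for GDF15, 0.79 for ADM2, 0.78 for CHAC1, 0.61 for TRIB3, 0.28 for DDIT4 and 0.25 for ATF4, and -0.24 for STC2. Among amino acid enzymes it was 0.65 for ALDH1L2, 0.59 for PSAT1 and 0.51 for ASNS. Among transporters it was 0.34 for SLC6A9, 0.32 for SLC7A5, 0.30 for SLC7A11 and 0.21 for SLC1A5. Among tRNA synthetases it was 0.28 for GARS1, 0.26 for WARS1, 0.21 for IARS1 and 0.19 for AARS1. Among folding genes it was 0.30 for DNAJB9, 0.24 for HERPUD1 and 0.20 for SEL1L. SCD, the desaturase, was at 0.24.

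Below 0 were CXCL8 at -1.28, HMGN2P5 at -1.21, BCYRN1 at -1.17, SERPINB2 at -0.93, CCL2 at -0.83, ALDH1A3 at -0.38 and PTGS2, the inducible cyclooxygenase, at -0.29. The pseudogene HMGN2P5 and the repeat-derived BCYRN1 were highest at the low dose of fresh ginger, and within it in library 1.

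Some of these calls were lost when single libraries were left out. ADM2 had an adjusted p of 0.051 to 0.15 without any 1 of 6 libraries, BCYRN1 of 0.055 to 0.19 and DNAJB9 of 0.051 to 0.16 without any 1 of 9 libraries each. HERPUD1 had 0.053 to 0.086 without any 1 of 4 libraries, high-dose library 1 and low-dose library 3 of fresh ginger and low-dose library 2 and high-dose library 3 of dried ginger. PTGS2 had 0.061 to 0.069 without high-dose library 1 or low-dose library 1 or 2 of dried ginger. HMGN2P5 was at 0.063 with the exon length trend taken out and low-dose library 1 of fresh ginger left out.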

How the results depend on the processing

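At 500 against 20 µg/mL the count of 4090 genes kept within 1.5 times under every alternative, from 2998 without low-dose library 1 to 3701 among single libraries left out, and 1322 to 1459 genes differed between 500 and 100 µg/mL. At 100 against 20 µg/mL the count of 186 was 465 with no filter, 315 with DESeq2, 79 with only the 18 ginger libraries, 67 with only the groups compared, 41 with the exon length trend taken out and low-dose library 1 left out, and 44 to 354 with single libraries left out. The difference between the gingers, 143 genes, was 416, 222, 92, 73 and 71 in the same settings and 80 to 286 with single libraries left out. The cause was not tested.

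The log2 fold changes of CD44 and ABCA1, which did not pass, changed sign at 0.00 without high-dose library 2 (CD44 ranged over -0.02 to 0.00 with single libraries left out) and at -0.00 with the length trend and low-dose library 1 both taken out. Over the genes named, SLC1A3 apart, and their alternatives, 2122 values of the comparison of doses kept direction and side of the threshold and 30 lost their call. For the difference between the gingers these were 533 and 43. Same-numbered high-dose and low-dose libraries did not deviate together (correlations of -0.06, -0.06 and -0.00). For high-dose and medium-dose libraries the correlations were 0.05, 0.05 and 0.03 with the same number and -0.04 to -0.01 with different numbers. Values this near 0 cannot settle whether the numbers pair the libraries. A replicate block gave 4182 genes, 4057 of them among the 4090. Depth limits low genes: CYP1A1 and TRPA1, near 1 CPM, had standard errors of 0.27 and 0.38.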
